A study of Mus musculus with 10 samples.

Results

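Hepatocytes near the central vein of the liver lobule express a set of genes that depends on Wnt signalling, and 10 of these genes were followed here in livers of mice with a liver-directed deletion of Dicer1, the gene of a microRNA-producing enzyme. The genes were taken by name: the glutamine and ammonia genes Glul, Oat, Slc1a2 and Rhbg, the Wnt feedback genes Axin2, Lgr5, Rnf43 and Znrf3, the transcription factor gene Tbx3, and Ctnnb1, which encodes beta-catenin. Every probe set that the platform annotation pairs with 1 of these symbols was used, which gave 17 of the 25995 probe sets of the table, and all 10 genes had at least 1. The mutant group held 5 livers of mice with loxP-flanked Dicer alleles on both chromosomes (DicerloxP/loxP) and an Afp-Cre transgene. The Afp promoter that drives this Cre is active in the fetal liver, in the precursors of hepatocytes and bile duct cells. The other group held 5 livers labelled only as control, whose alleles are not given in the labels. All 10 mice were 28 days old, of mixed strain and fasted for 5 hours, and the labels name neither sex nor litter. Total liver RNA was measured with 1 array per animal, so the values mix all cell types of the organ.

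As background, Wnt ligands and R-spondins made by endothelial cells of the central vein keep beta-catenin active in the hepatocytes around it. Beta-catenin that escapes its destruction complex enters the nucleus and drives target genes with TCF and LEF factors. In the innermost hepatocytes these targets include glutamine synthetase and the proteins that feed it, which capture ammonium left over from periportal urea synthesis. Axin2, Rnf43 and Znrf3 are targets that damp the same pathway, and Lgr5 encodes a receptor for R-spondins.

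The deleted gene itself, Dicer1, stood below every control in each mutant liver. On its brighter probe set it averaged 7.06 ± 0.10 in mutants and 8.08 ± 0.10 in controls (SD, n = 5 each), and on the other it averaged 5.75 ± 0.23 in mutants and 8.06 ± 0.04 in controls (SD, n = 5 each). All values are log2 values as deposited, and differences are mutant minus control on that scale. A probe set was called at an adjusted p under 0.05 by limma, with Benjamini-Hochberg adjustment over 25958 probe sets. The hepatocyte markers Alb (16.24 ± 0.12 in mutants and 16.20 ± 0.11 in controls, SD, n = 5 each), Ttr and Apoa1 stood near the top of the scale on every array. The 25th percentile of all values, 3.60, serves below as a mark for dim signal and is a convention, not a detection limit. Mutant replicate 5 stood apart: without it 2115 probe sets were higher and 3194 lower, against 1505 and 1917 with all arrays. For that reason values without it are given beside many of the results it moves, and ranges of the other counts are given at the end.

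Of the 17 probe sets, 3 were higher in mutant liver, 0 were lower and 14 did not pass the test. The 3 were the probe set of Oat, 1 of 3 for Slc1a2 and 1 of 3 for Ctnnb1. Among all probe sets 13.2% were called, namely 5.8% as higher and 7.39% as lower in mutants. Before adjustment, 5 of the 17 had a p under 0.05 by limma, a share near the 28.7% of all probe sets. The differences were positive for 15 of the 17, with a median of 0.28, beside a median of -0.01 for all probe sets. Probe sets of the same gene are not separate measures, and the 15 include a dim Lgr5 probe set at 0.0027. By gene on the brightest probe set the median was 0.35, beside -0.01 for all genes. The share of positive differences over all probe sets is not given here. The groups did not overlap for 2 of the 17 probe sets, against 10.3% of all probe sets (5.0% with the mutants above). Counted by gene with the brightest probe set, 3 of 10 were called, against 16.8% of 12366 genes, with 7.29% called higher. By gene, 2 of 10 had all mutants above all controls, as had 6.17% of all genes, with 13.2% of all genes not overlapping in either direction. Leaving out 1 array moved the number of higher probe sets between 0 (without control replicate 4) and 5 (without mutant replicate 5). The number was 1 in 6 such comparisons (without mutant replicate 2, 3 or 4, and without control replicate 1, 3 or 5) and 2 in the remaining ones (control replicate 2, mutant replicate 1).

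**Figure D1:**
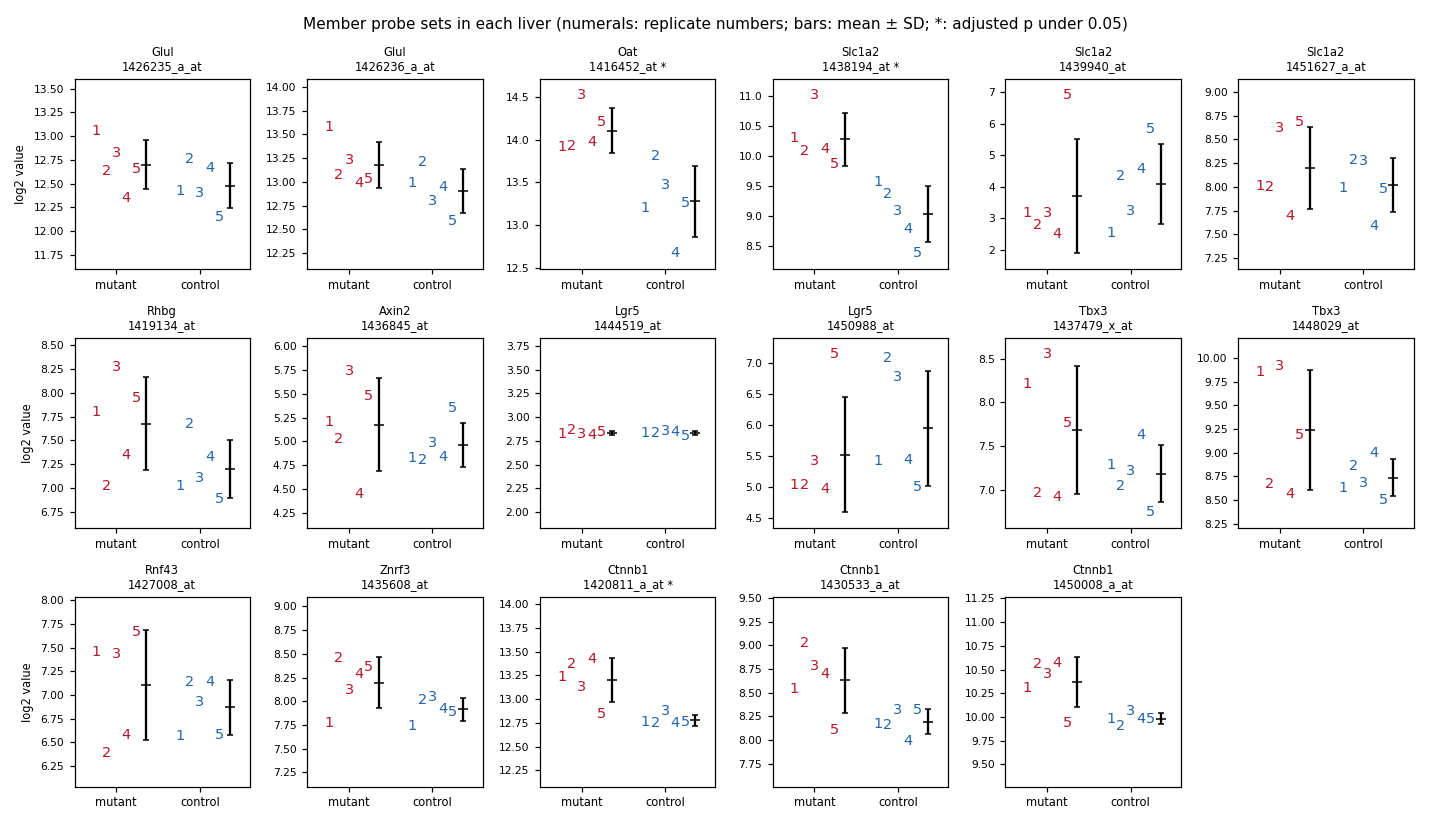
Log2 value of each of the 17 probe sets in every liver, with mutants left and controls right; numerals are replicate numbers, bars are mean ± SD over 5 livers, and a star marks an adjusted p under 0.05. For Oat and 1 Slc1a2 probe set all mutants lie above all controls, and for Rhbg, Tbx3 and Rnf43 the mutants numbered 1, 3 and 5 lie above all controls while the other two do not.

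Of the 4 glutamine and ammonia genes, Oat passed the test, Slc1a2 passed on 1 of 3 probe sets, and Glul and Rhbg did not pass. Differences between these genes were not tested. Slc1a2, which encodes a glutamate transporter, rose on its brightest probe set (1438194_at). It measured 10.30, 10.08, 11.02, 10.12 and 9.87 in mutant replicates 1 to 5, against 9.56, 9.36, 9.09, 8.78 and 8.38 in control replicates 1 to 5. Every mutant lay above every control, and mutant replicate 3 was the highest. The difference was 1.24 (SE 0.27, limma adjusted p = 0.0207), or 2.37-fold if the scale is log2 as its values appear (95% interval 1.56 to 3.60). The call was lost without control replicate 4 (adjusted p = 0.0506, difference 1.18) and held without each other array.

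The other two Slc1a2 probe sets did not pass. Probe set 1451627_a_at measured 8.01, 8.00, 8.62, 7.69 and 8.69 in mutants, against 7.99, 8.28, 8.28, 7.58 and 7.98 in controls. The groups overlapped, and the difference was 0.18 (95% interval -0.31 to 0.67, limma adjusted p = 0.668). Probe set 1439940_at was dim, at 2.50 to 3.17 in 4 mutants and 6.92 in mutant replicate 5, against 2.52 to 5.85 in controls, and its difference was -0.39 (95% interval -2.46 to 1.69). Over the 10 arrays the brightest probe set correlated with these at a Pearson r of 0.40 and -0.44, so the rise of Slc1a2 rests on 1 of 3 probe sets. The files and labels do not say which transcript each probe set reads.

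Oat encodes ornithine aminotransferase, a mitochondrial enzyme that turns ornithine into a precursor of glutamate. Its probe set measured 13.91, 13.92, 14.52, 13.97 and 14.21 in mutant replicates 1 to 5, against 13.21, 13.81, 13.46, 12.67 and 13.25 in control replicates 1 to 5. The lowest mutant lay just above the highest control, control replicate 2. Oat rose by 0.83 (SE 0.20, limma adjusted p = 0.0319), 1.77-fold on a log2 scale (95% interval 1.29 to 2.44). The direction was the same without any single array, with differences from 0.67 to 0.96. The call held only without mutant replicate 5 or control replicate 2. In the other 8 such comparisons the adjusted p lay between 0.0505, without control replicate 4, and 0.0659, without mutant replicate 3.

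The start regions of these genes are shown because Slc1a2 and Oat were the only members whose groups did not overlap. Each is the RefSeq window from 250 bases before to 50 bases after a gene start on GRCm38.p6, on the gene's strand, 5′ to 3′. Capitals mark a match to CTTTGAT or CTTTGAA, the core letters read by TCF and LEF factors, searched on both strands and with no overlap between the forms in these windows. The Slc1a2 window lies at chr2:102706188-102706487 (plus strand) and the Oat window at chr7:132576349-132576648 (minus strand).
Slc1a2: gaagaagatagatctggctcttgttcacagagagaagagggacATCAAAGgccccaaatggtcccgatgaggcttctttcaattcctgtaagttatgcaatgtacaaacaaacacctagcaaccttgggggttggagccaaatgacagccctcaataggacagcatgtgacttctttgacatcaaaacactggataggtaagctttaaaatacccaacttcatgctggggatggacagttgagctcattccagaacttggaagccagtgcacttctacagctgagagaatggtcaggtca
Oat: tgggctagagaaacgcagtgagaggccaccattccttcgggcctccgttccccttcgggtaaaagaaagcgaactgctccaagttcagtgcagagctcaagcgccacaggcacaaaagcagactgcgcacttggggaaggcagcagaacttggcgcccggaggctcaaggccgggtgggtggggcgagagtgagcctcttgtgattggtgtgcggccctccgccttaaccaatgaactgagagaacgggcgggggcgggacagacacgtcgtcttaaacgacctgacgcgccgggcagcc
The Slc1a2 window held 1 match, to CTTTGAT on the opposite strand, where it reads ATCAAAG, starting 207 bases before the gene start. The Oat window held none. Windows were found for 6 of the 10 genes (Glul, Oat, Slc1a2, Axin2, Rnf43 and Ctnnb1), 8 windows in all, and the Slc1a2 window was the 1 with a match, while 8.65% of 32851 windows of all genes held one. The windows also differed in CpG dinucleotides, with 1 in that of Slc1a2, 22 in Oat, 17 in Glul, 31 in Axin2, 10 and 3 in those of Rnf43 and 46 and 51 in the windows of Ctnnb1, beside a median of 7 over all windows. A match in a window is a run of letters and not a bound site, and whether a factor acts elsewhere at these genes was not measured.

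Glul encodes glutamine synthetase, the enzyme that joins ammonium to glutamate and the classical marker of the hepatocytes next to the central vein. On its brighter probe set (1426236_a_at) it measured 13.58, 13.07, 13.23, 12.98 and 13.03 in mutant replicates 1 to 5, against 12.99, 13.21, 12.80, 12.94 and 12.58 in control replicates 1 to 5. Mutant replicates 1 and 3 lay above every control and the other three lay within the control range. The difference was 0.27 (SE 0.14, limma adjusted p = 0.245), with a 95% interval of -0.05 to 0.59, and it was 0.17 without mutant replicate 1. The other Glul probe set (1426235_a_at) tracked it at r = 0.93 over the 10 arrays and differed by 0.22 (SE 0.15, limma adjusted p = 0.384). A change of Glul as large as that of the called Slc1a2 probe set lies outside both intervals, and one up to 0.59 does not.

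Rhbg encodes an ammonium transporter of the hepatocyte membrane. It measured 7.80, 7.02, 8.27, 7.35 and 7.94 in mutants, against 7.02, 7.67, 7.11, 7.33 and 6.89 in controls. Mutant replicates 1, 3 and 5 lay above all controls, while mutant replicates 2 and 4 lay within the control range. The difference of 0.47 (SE 0.24, 95% interval -0.07 to 1.02) did not pass (limma adjusted p = 0.237), nor did it without any single array (adjusted p from 0.103 to 0.420).

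**Figure D2:**
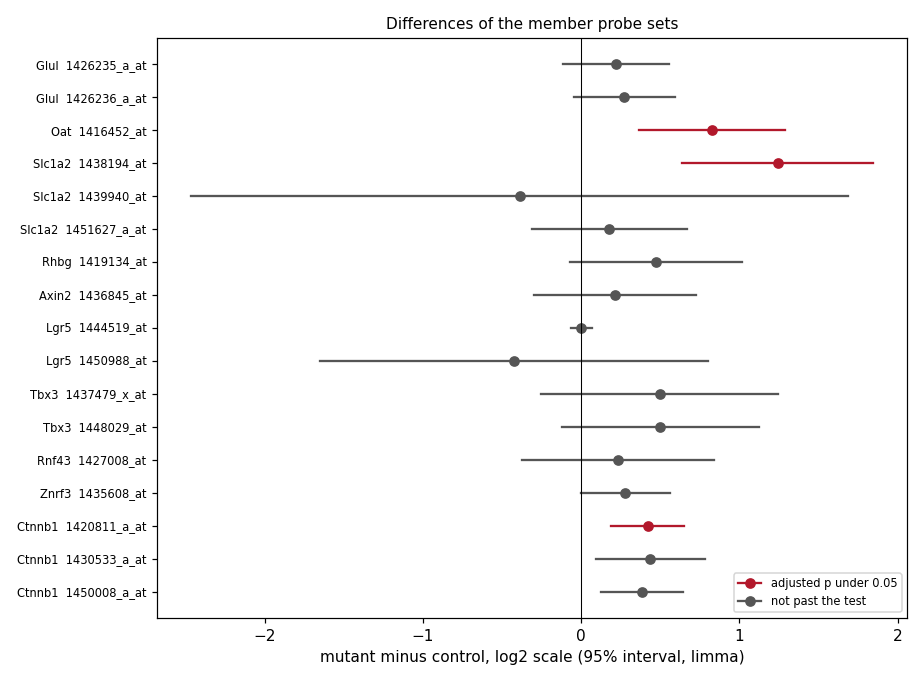
Mutant minus control difference of each probe set on the log2 scale (point) with its 95% interval from limma (line), red where the adjusted p was under 0.05. The called differences are those of Oat, 1 Slc1a2 probe set and 1 Ctnnb1 probe set, and the 3 Ctnnb1 intervals all lie above 0.

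None of the 4 Wnt feedback genes passed the test. Axin2, a scaffold of the destruction complex that is widely used as a readout of Wnt signalling, measured 5.21, 5.03, 5.74, 4.44 and 5.48 in mutant replicates 1 to 5, against 4.83, 4.81, 4.98, 4.84 and 5.35 in control replicates 1 to 5. Mutant replicates 3 and 5 lay above all controls and mutant replicate 4 below all of them. The difference was 0.22 (SE 0.23, 95% interval -0.29 to 0.73, limma adjusted p = 0.611). It ran from 0.076 without mutant replicate 3 to 0.40 without mutant replicate 4. The mutant SD was 0.49, beside 0.23 in controls.

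Rnf43 and Znrf3 encode related membrane ubiquitin ligases that remove Wnt receptors from the cell surface. Rnf43 measured 7.45, 6.39, 7.43, 6.58 and 7.66 in mutants, against 6.57, 7.14, 6.93, 7.14 and 6.57 in controls. Again mutant replicates 1, 3 and 5 lay above all controls. Here mutant replicate 2 lay below all controls, and the difference was 0.23 (SE 0.27, 95% interval -0.37 to 0.84, limma adjusted p = 0.648). It ran from 0.093 without mutant replicate 5 to 0.41 without mutant replicate 2. Znrf3 measured 7.77, 8.45, 8.11, 8.28 and 8.36 in mutants, against 7.73, 8.01, 8.04, 7.92 and 7.88 in controls. All mutants but replicate 1 lay above all controls. Its difference of 0.28 (SE 0.12, 95% interval -0.0024 to 0.56, limma adjusted p = 0.178) passed without mutant replicate 1 (0.38, adjusted p = 0.0399) and without no other array.

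Lgr5, the R-spondin receptor gene, could be read on 1 of its 2 probe sets. On 1450988_at it measured 5.04, 5.03, 5.42, 4.96 and 7.15 in mutant replicates 1 to 5, against 5.42, 7.09, 6.77, 5.44 and 5.00 in control replicates 1 to 5. Single arrays in both groups stood high, namely mutant replicate 5 and control replicates 2 and 3. The difference was -0.42 with a 95% interval of -1.65 to 0.80 (limma adjusted p = 0.690), and it ran from -0.14 without control replicate 2 to -0.83 without mutant replicate 5. Probe set 1444519_at ran from 2.81 to 2.87 in mutants and from 2.80 to 2.86 in controls, below the mark of 3.60 on every array, so it carries no measure of change.

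Tbx3, a T-box transcription factor gene and a Wnt target in liver, spread more among the mutants than among the controls. Its brighter probe set (1448029_at) measured 9.85, 8.67, 9.91, 8.57 and 9.18 in mutants, against 8.63, 8.86, 8.68, 9.00 and 8.50 in controls. Mutant replicates 1, 3 and 5 lay above all controls and mutant replicates 2 and 4 within their range. The SD was 0.63 in mutants and 0.20 in controls, and the difference of 0.50 (SE 0.28, 95% interval -0.12 to 1.12) did not pass (limma adjusted p = 0.276). It ran from 0.33 without mutant replicate 3 to 0.67 without mutant replicate 4. The other probe set (1437479_x_at) placed the same 3 mutants above all controls, correlated with the first at r = 0.96, and differed by 0.50 (SE 0.33, limma adjusted p = 0.381), with 0.28 to 0.69 when the same arrays were left out.

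Ctnnb1 encodes beta-catenin, which both relays the Wnt signal and links cadherins to the cytoskeleton at adherens junctions. On its brightest probe set (1420811_a_at) it measured 13.23, 13.37, 13.13, 13.42 and 12.84 in mutant replicates 1 to 5, against 12.76, 12.75, 12.88, 12.75 and 12.75 in control replicates 1 to 5. All mutants but replicate 5 lay above all controls, and mutant replicate 5 lay between the highest control and the next. Ctnnb1 rose by 0.42 on this probe set (SE 0.10, limma adjusted p = 0.0301), 1.34-fold on a log2 scale (95% interval 1.14 to 1.57). Probe set 1430533_a_at differed by 0.44 (SE 0.15, limma adjusted p = 0.0924) and correlated with it at r = 0.89. Probe set 1450008_a_at differed by 0.38 (limma adjusted p = 0.0557) and correlated at 0.97.

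Without mutant replicate 5 all 3 Ctnnb1 probe sets passed, with differences of 0.51, 0.57 and 0.49 and adjusted p of 0.00155, 0.00686 and 0.00139 by limma. Without any other single array the call of the brightest probe set was lost, with adjusted p between 0.0536 (without control replicate 3) and 0.0681 (without mutant replicate 2) and differences from 0.36 to 0.45. Array median subtraction also ended it (0.43, adjusted p = 0.0562). The SD of this probe set was 0.23 in mutants and 0.06 in controls, which lay within 12.75 to 12.88.

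The genes did not order the mutant livers alike. On their brightest probe sets Rhbg, Tbx3 and Rnf43 each had replicates 1, 3 and 5 as the 3 highest mutants, as did Axin2 and Lgr5, though for Axin2 and Lgr5 not all 3 exceeded the controls. Ctnnb1 ran the other way, with replicates 4 and 2 highest and replicate 5 lowest. Znrf3 was highest in replicates 2 and 5 and lowest in replicate 1. Slc1a2 and Oat were highest in replicate 3 and Glul in replicate 1.

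Over deviations from the group means on the 10 arrays, Rhbg correlated with Rnf43 at a Pearson r of 0.89 and with Tbx3 at 0.81, and Tbx3 with Rnf43 at 0.80. Ctnnb1 correlated with Rnf43 at -0.74, with Axin2 at -0.64 and with Rhbg at -0.61. Negative values were not limited to Ctnnb1, as Znrf3 correlated with Tbx3 at -0.64 and with Glul at -0.58. Glul and Tbx3 stood at 0.67, and Glul and Axin2 at -0.05. These are descriptions over 10 arrays that share 1 platform and normalization, and genes measured on one array also share any difference of that array as a whole. Mutant replicate 5, where Ctnnb1 stood 0.06 above the control mean, was the second highest mutant for Oat (0.93 above), Rhbg (0.74 above) and Axin2 (0.52 above), and the highest for Rnf43 (0.80 above). Mutant replicate 5 was also the highest mutant for Lgr5 (1.21 above) and the second highest for Znrf3 (0.44 above). It was the lowest mutant for Slc1a2 and the fourth highest for Glul.

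**Figure D3:**
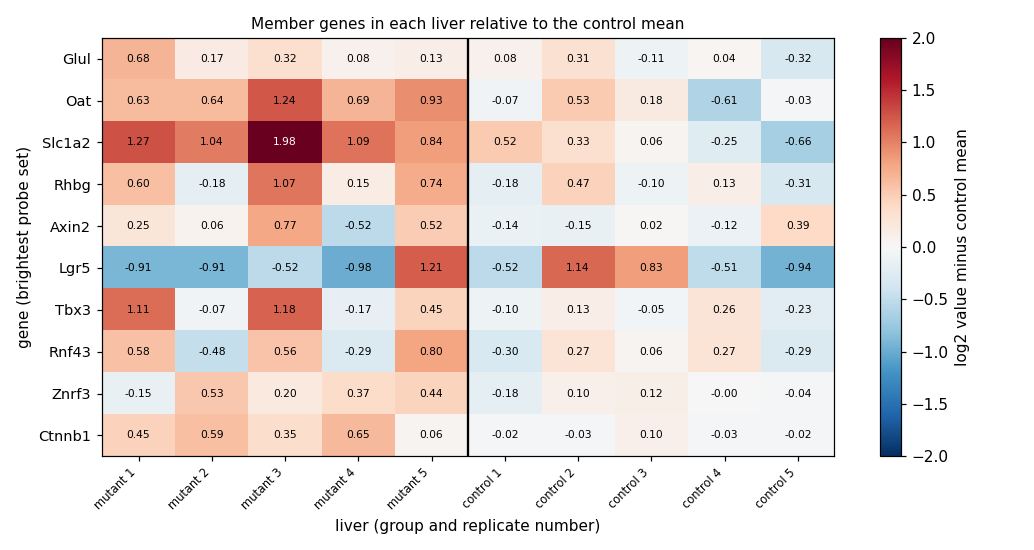
Log2 value minus the control mean for the brightest probe set of each gene (rows) in each liver (columns, mutants left of the line, controls right), with red above and blue below the control mean. Rhbg, Tbx3 and Rnf43 are above the control mean by 0.45 to 1.18 in mutants 1, 3 and 5 and between -0.48 and 0.15 in mutants 2 and 4, while Ctnnb1 is lowest in mutant 5.

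Among 6075 other genes with a brightest probe set at or above the median mean, those whose 10-array profile was most like Glul were Klhl9 (Pearson r = 0.95), U2af2 (0.94), Hnrnpf (0.88), Atxn3 (0.86) and Alad (0.85). Most like Axin2 were Nudc (r = 0.86), Pygl (0.85), Sec14l2 (0.84), Med4 (0.82) and Oxnad1 (0.82). No other gene of the 10 was among these 5 for either one, but any of the 10 below that median mean could not have appeared. How high such values run for other profiles was not tested.

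Other pericentral genes were read from a list of 21, of which 19 were measured. Of these, 5 rose, 1 fell and 13 did not pass, with a median difference of 0.21 beside -0.01 for all genes, and 9 had an unadjusted p under 0.05, as had 35% of all genes. Without mutant replicate 5, 7 of these pericentral genes were higher and 2 lower. Slc13a3, a dicarboxylate transporter, measured 11.56, 11.82, 11.40, 11.72 and 11.08 in mutants, against 8.94, 10.39, 9.91, 8.96 and 9.10 in controls. It rose by 2.05 (SE 0.30, limma adjusted p = 0.00747), and the groups did not overlap. Cyp1a2, a xenobiotic-metabolising cytochrome P450, measured 14.22, 14.55, 14.58, 14.28 and 14.32 in mutants, against 13.89, 13.81, 13.58, 13.70 and 13.38 in controls, and rose by 0.72 (SE 0.11, limma adjusted p = 0.00847).

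The secreted ribonuclease gene Rnase4 rose by 0.69 (limma adjusted p = 0.00689) and the carbonic anhydrase gene Car2 by 0.57 (adjusted p = 0.0175). Blvrb, a biliverdin reductase gene, fell by 0.96 (limma adjusted p = 0.0140), and its mutant replicate 5, at 10.48, was the closest to the controls, which ran from 10.67 to 10.93. These calls, with those of Slc13a3 and Cyp1a2, held without any single array. Ahr, the gene of the aryl hydrocarbon receptor, rose by 0.60 (limma adjusted p = 0.0238), and its call was lost in 5 of 10 comparisons without 1 array (adjusted p up to 0.0585). Cyp2e1, the most familiar pericentral cytochrome P450, measured from 15.31 to 15.56 in mutants, against 15.28 to 15.51 in controls, with a difference of 0.10 (95% interval -0.06 to 0.25, limma adjusted p = 0.404).

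Of 20 measured periportal genes, which mark the opposite end of the lobule, 1 rose, 0 fell and 19 did not pass, with a median of 0.03 and 9 at an unadjusted p under 0.05. Cps1, the first enzyme of the urea cycle, differed by 0.09 (95% interval -0.04 to 0.23, limma adjusted p = 0.367), and the cytochrome P450 gene Cyp2f2 by -0.19 (95% interval -0.35 to -0.02, adjusted p = 0.129). The 1 that rose was Cdh1, the gene of E-cadherin, at 1.14 (SE 0.30, limma adjusted p = 0.0373). Its call held only without mutant replicate 5, and without any other array the adjusted p reached up to 0.0829. Without mutant replicate 5, 2 periportal genes were higher and 4 lower. Whether the pericentral and periportal lists differ from each other was not tested.

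Among 17 other measured genes of glutamine and ammonia handling, 1 rose, 1 fell and 15 did not pass, with a median of 0.02. Before adjustment 5 of them had a p under 0.05 by limma. The neutral amino acid transporter gene Slc1a4 rose by 0.96 (limma adjusted p = 0.0460), and Nags, whose product makes the activator of CPS1, fell by 0.73 (adjusted p = 0.0491). The Slc1a4 call held only without mutant replicate 5 or control replicate 2, and the Nags call only without mutant replicate 5. Quantile normalization or array median subtraction also ended the Slc1a4 call (adjusted p up to 0.0627).

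Upstream of beta-catenin, 0 of 11 measured genes of Wnt ligands, R-spondins and their secretion were called by limma, and 1 had an unadjusted p under 0.05. The list held 25 genes, and the others had no probe set paired with their symbol alone. The mean of 5 of the 11 lay below the dim mark. Wnt2, an endothelial ligand of the central vein, measured 5.08, 5.16, 5.13, 4.25 and 5.35 in mutants, against 4.65, 5.14, 5.17, 5.49 and 5.19 in controls. The difference was -0.14 (95% interval -0.63 to 0.36, limma adjusted p = 0.769). Rspo3, the R-spondin of the central vein, differed by 0.21 (95% interval -0.21 to 0.64, limma adjusted p = 0.534). Wnt9b, on the same list, had no probe set paired with its symbol alone and so was not measured here. Of 9 measured secreted Wnt inhibitors, from a list of 15, 0 were called by limma. Before adjustment 1 had a p under 0.05 by limma, and 4 had a mean below the dim mark.

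Of 17 receptors 2 rose and 0 fell, with a median of 0.00, and 4 had a mean below the dim mark. The receptor differences ran from -1.56, which did not pass, to 0.90. Without mutant replicate 5, 2 receptors were higher and 2 lower. Before adjustment, with all arrays, 5 of the 17 receptors had a p under 0.05 by limma. The Frizzled receptor gene Fzd6 measured 7.95, 7.71, 8.31, 8.22 and 7.81 in mutants, against 6.84, 6.83, 7.17, 7.25 and 7.41 in controls, and rose by 0.90 (SE 0.15, limma adjusted p = 0.0107) with no overlap. The co-receptor gene Lrp6 rose by 0.43 (limma adjusted p = 0.0239) on 1 of 2 probe sets, while the other differed by 0.15. Leaving out mutant replicate 1, 2 or 4, or control replicate 1, 2 or 3, ended its call (adjusted p up to 0.0591).

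Of 18 genes of the destruction complex and signal relay, 3 rose and 0 fell, with a median of 0.16. Before adjustment 8 of them had a p under 0.05 by limma. Ppp2r1a, a scaffold subunit of protein phosphatase 2A, rose by 0.57 (SE 0.05, limma adjusted p = 0.00245). The tankyrase gene Tnks2 differed by 0.56 (limma adjusted p = 0.00958), and Dvl1, of the Dishevelled family, by 0.53 (adjusted p = 0.0374). Ppp2r1a and Tnks2 held without any single array, and Dvl1 held only without mutant replicate 5 and differed by 0.09 on its other probe set. Array median subtraction also ended the Dvl1 call (adjusted p = 0.0591). Of 18 nuclear partners, 1 rose and 1 fell, with a median of 0.09, and 3 had a mean below the dim mark. Before adjustment 11 of these 18 had a p under 0.05 by limma, beside 35% of all genes. Ctnnbip1, which encodes an inhibitor that keeps beta-catenin from TCF factors, measured 3.74, 4.60, 4.89, 5.69 and 6.43 in mutants, against 6.90, 6.58, 7.08, 6.94 and 6.43 in controls. It fell by 1.72 (SE 0.44, limma adjusted p = 0.0356), and mutant replicate 5 lay just under the lowest control. Its other probe set differed by -0.85, and the call held only without mutant replicate 5. The chromatin remodeller gene Smarca4 rose by 0.30 (limma adjusted p = 0.0430), and its call held only without mutant replicate 5 or control replicate 5 and not with trended robust eBayes.

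Wnt targets shared with other tissues, a list of 12 measured genes, had 3 that rose and 0 that fell, with a median of 0.11. Before adjustment 4 of them had a p under 0.05 by limma. The cyclin gene Ccnd1 rose by 1.73 (SE 0.36, limma adjusted p = 0.0189) and held without any single array. The receptor gene Cd44 rose by 1.27 (adjusted p = 0.0209), lost its call without mutant replicate 4 (adjusted p = 0.0515) and ranged from 0.14 to 1.32 over 3 probe sets. Myc rose by 1.86 (adjusted p = 0.0323), with a call that held only without mutant replicate 3 or 5. These 3 genes respond to many signals besides Wnt.

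Partners of beta-catenin at the cell junction were also read. Of 11 measured catenin and cadherin genes, 4 rose and 0 fell, with a median of 0.26. Before adjustment 6 of them had a p under 0.05 by limma. Ctnna1, the gene of alpha-catenin, measured 12.05, 12.20, 11.99, 12.32 and 11.84 in mutants, against 11.48, 11.48, 11.39, 11.43 and 11.35 in controls. It rose by 0.65 (SE 0.08, limma adjusted p = 0.00528), and like Ctnnb1 it was highest in mutant replicates 4 and 2 and lowest in replicate 5. The plakoglobin gene Jup rose by 0.85 (limma adjusted p = 0.0153) and the N-cadherin gene Cdh2 by 0.40 (adjusted p = 0.0129), and these 3 calls held without any single array. Cdh1, given above, is the fourth.

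**Figure D4:**
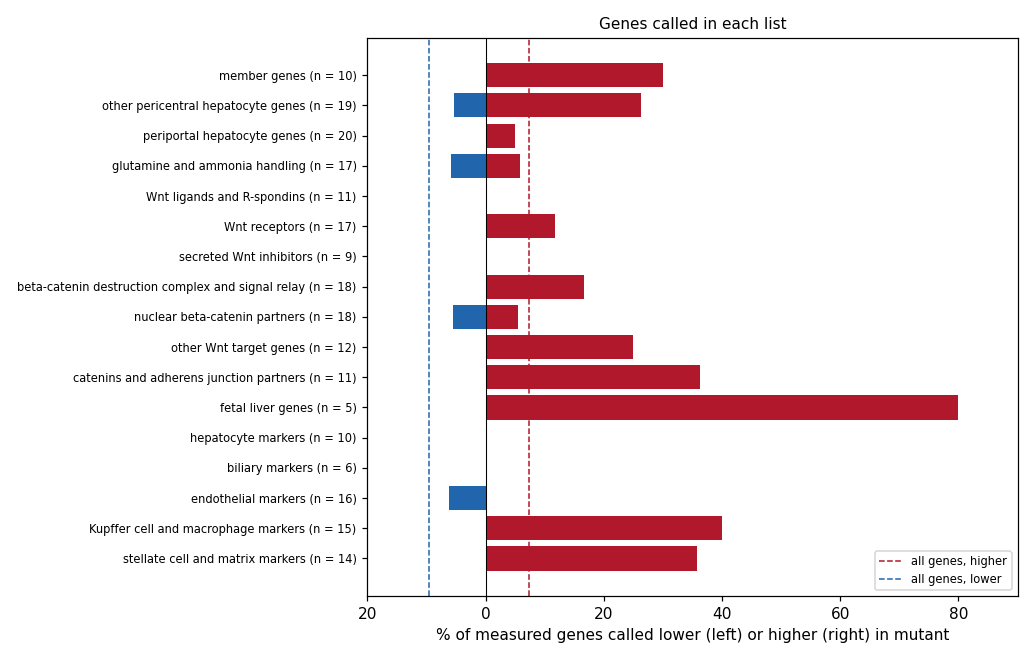
Share of measured genes called lower (left, blue) or higher (right, red) in mutant liver, in percent, for the 10 genes and each list; dashed lines give the shares over all genes, 9.56% lower and 7.29% higher. Above the line for higher genes lie the 10 genes, the other pericentral genes, the receptors, the signal relay, the other Wnt targets, the junction genes, the fetal liver genes and the markers of macrophages and stellate cells; the remaining lists lie below it.

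Of 5 measured fetal liver genes, which are normally silenced after birth or confined to few adult cells, 4 rose and 0 fell, with a median of 4.03 on the log2 scale. Afp, which encodes alpha-fetoprotein and whose promoter drives the Cre, measured 14.17, 14.91, 13.17, 14.30 and 8.50 in mutants, against 8.13, 7.76, 6.93, 5.43 and 7.30 in controls. The groups did not overlap, with mutant replicate 5 closest to the controls, and Afp rose by 5.90 (SE 1.16, limma adjusted p = 0.0159). Igf2, Gpc3 and Prom1 also rose without overlap, and Dlk1, whose mean was below the dim mark, differed by 0.44 (limma adjusted p = 0.184). The part of these genes in the differences of the 10 genes was not tested. Markers of other liver cells moved in the same arrays. Of 15 macrophage markers 6 rose and 0 fell, with a median of 0.59, and their summed linear level ran from 23148 to 32857 in mutants and from 13137 to 22467 in controls. Of 14 stellate cell and matrix markers 5 rose and 0 fell, with a median of 0.46, and a summed level of 32925 to 48254 in mutants and 24412 to 29222 in controls. Of 16 endothelial markers 0 rose and 1, Lyve1, fell (-0.95, limma adjusted p = 0.0235), with a summed level of 9511 to 10946 in mutants and 9635 to 12882 in controls. The Lyve1 call did not survive leaving out mutant replicate 1 or 2, or control replicate 3, 4 or 5. Of 6 biliary markers and 10 hepatocyte markers 0 were called by limma, and 1 in each list had an unadjusted p under 0.05. That limit was met by 12 macrophage, 10 stellate and 5 endothelial markers, beside 35% of all genes. No marker of the macrophage, stellate, endothelial or hepatocyte lists had a mean below the dim mark, and 3 biliary markers did. Leaving out mutant replicate 4 took the count of macrophage markers that rose to 0, leaving out mutant replicate 1 took it to 1, and leaving out mutant replicate 2, control replicate 1 or control replicate 5 took it to 2, with 4 to 6 in the remaining comparisons. The count of stellate markers was 8 when mutant replicate 5 was left out and 2 when mutant replicate 2, mutant replicate 4 or control replicate 4 was, with 3 for mutant replicate 1, control replicate 1 and control replicate 2 and 4 for the rest. In whole liver RNA a change in the number of cells of a type and a change in RNA per cell cannot be told apart, and the part of other cell types in the differences of the 10 genes was not tested.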

How the data were processed

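Per the labels' protocols, liver RNA was amplified and biotinylated before hybridisation, with 1 array for each of 10 animals. What the authors deposited is 1 table on a log2 scale, as read from its values (0.27 to 16.7, array medians of 6.41 to 6.68). How they corrected background, summarised probes and normalized is not stated in the files or labels. No batch label was at hand, and 5 arrays a group limit the precision.

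After 37 control probe sets were left out, the other 25958 entered a moderated linear model (limma 3.58.1, R 4.3.3; lmFit, eBayes) without a block, and two-sided p-values were adjusted over all of them. Platform annotation gave 1 symbol to 21613 probe sets, several to 638 and none to 3707. Symbols were checked by gene identifier against GRCm38.p6: 0 changed, and 61 identifiers had no match. Each list gene was read on its probe set with the highest mean. The limma p-values take their error from the spread between the animals of each group, moderated toward the spread typical of all probe sets. Intervals are 95% intervals of single probe sets, not adjusted for their number.

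The 10 genes, the lists and the rule for named genes were chosen with earlier results of these data known. Named are all probe sets of the 10 genes, Dicer1, Cyp2e1, Cyp1a2, Cps1, Cyp2f2, Wnt2 and Rspo3, called list genes with small p (up to 4 a list), Ahr as the sixth called pericentral gene (chosen after its values were seen), hepatocyte markers for the tissue check, and the 5 profiles most like Glul and Axin2. Alternatives were quantile normalization, subtraction of array medians or 75th percentiles, a filter on dim probe sets, trended and robust eBayes, array weights, the replicate number as a block, 1 probe set per gene, each array left out, and an exact permutation test.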

Additional observations from a re-analysis of the deposited data

Results flagged for a closer look

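Of 34 groups of 5 arrays, 3 held a value whose gap to the nearest other array exceeded 0.71 of the group's range, Dixon's 95% limit, which chance passes in about 1 group in 20. Lgr5 on 1450988_at stood at 7.15 in mutant replicate 5, with the other mutants from 4.96 to 5.42. Slc1a2 on 1439940_at stood at 6.92 in mutant replicate 5, with the other mutants from 2.50 to 3.17. Ctnnb1 on 1420811_a_at stood at 12.88 in control replicate 3, with the other controls from 12.75 to 12.76.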

How the results depend on the processing

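Of 298 differences of the 17 probe sets recomputed with limma, 265 kept their direction and side of the threshold, 20 lost the call, 7 gained it and 6 turned sign. The sign turned for Lgr5 on the dim 1444519_at (-0.000083 with quantile normalization, -0.0049 with array weights, -0.0050 to 0.0089 without 1 array each) and for Slc1a2 on 1439940_at (-1.19 to 0.052 without 1 array each). The cause was not tested. Array weights gave 5 higher probe sets of the 10 genes in place of 3, and 0 to 5 were higher without 1 array each. All probe sets called numbered 776 to 2115 higher and 770 to 3194 lower without 1 array each, and 907 higher with the replicate number as a block.

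The replicate numbers were not taken as pairs: same-numbered deviations correlated between -0.18 and 0.15, and 1 of 5 mutants correlated best with its own number. With the replicate number as a block the Ctnnb1 call was lost (adjusted p = 0.0641), macrophage markers higher numbered 1, receptors higher 1, and nuclear partners 0 higher and 0 lower. Among the list genes named above, the block also ended the calls of Ahr (limma adjusted p = 0.0727), Cdh1 (0.0564), Lrp6 (0.0633) and Cd44 (0.0653). It ended those of Ctnnbip1 (0.0723) and Smarca4 as well.

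Other counts that moved by over 1.5 times were as follows. Array weights gave pericentral 2 lower, periportal 3 higher, signal relay 5 higher, nuclear partners 3 higher and 3 lower, and endothelial 1 higher and 2 lower. Median subtraction gave periportal 1 lower, signal relay 1 lower, nuclear partners 2 lower, and glutamine and ammonia 0 higher and 2 lower. Quantile normalization gave signal relay 1 lower, nuclear partners 2 lower, and glutamine and ammonia 0 higher. The 75th percentile gave nuclear partners 2 lower, and trended robust eBayes 0 higher and 2 lower. Leaving out dim probe sets gave periportal 2 higher, nuclear partners 3 lower, endothelial 2 lower and macrophage 10 higher. With 1 probe set per gene these were pericentral 2 lower, nuclear partners 3 lower, endothelial 2 lower and macrophage 10 higher.

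Without 1 array each, counts ran as follows: pericentral 1 to 2 lower, periportal 0 to 2 higher and 0 to 4 lower, receptors 1 to 3 higher and 0 to 2 lower, nuclear partners 0 to 2 higher and 0 to 2 lower, other Wnt targets 1 to 4 higher, glutamine and ammonia 0 to 1 higher and 0 to 2 lower, endothelial 0 to 1 higher and 0 to 2 lower, macrophage 0 to 6 higher, stellate 2 to 8 higher, and biliary 0 to 1 higher.

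The exact permutation test, two-sided and unadjusted, gave its smallest possible p of 0.0079 for Oat and the called Slc1a2 probe set (n = 5 each). That value follows from groups that do not overlap, so it adds nothing to the lack of overlap given above. For Ctnnb1 the same test gave 0.0159 on the brightest probe set and 0.0397 on each of the others. Every remaining probe set of the 10 genes had a permutation p of 0.079 or more.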
